A study of Homo sapiens with 12 samples.

Results

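The genes described here are 8 tetraspanins (CD82, CD9, CD63, CD81, CD151, TSPAN15, TSPAN6 and TSPAN3) and 2 lysosomal membrane proteins (CD68 and LAPTM5), 10 genes of 60902 in the data. They were taken by symbol, and the set was chosen by the TPM of these same libraries: CD82 and CD68 were picked as higher after treatment, and TSPAN15 for a DDP effect that differed between media. Their own differences are therefore given as values without a p, and where they pass a limit this is counted as a description and not as a test. RNA was sequenced from A549/DDP, an established human lung adenocarcinoma line resistant to the DNA-crosslinking platinum drug cisplatin (DDP). CON cells stayed in normal medium with 2 g/L glucose and 10% serum. DDP cells received cisplatin in that medium. TRF cells, a culture model of time-restricted feeding, were fed normal medium for 6 h of each 24 h cycle and kept without serum or glucose for the other 18 h, and TRF+DDP cells had this regime with cisplatin. Each group held 3 libraries. All 4 groups came from a line that is kept in cisplatin to maintain its resistance, and whether the drug was withdrawn beforehand is not stated, so what the CON and TRF cells had met before is unknown.

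Tetraspanins are small membrane proteins that cross the bilayer several times and gather integrins, immunoglobulin-family proteins and proteases into membrane microdomains. CD9, CD81, CD82 and CD151 sit mainly at the cell surface, whereas CD63 cycles to late endosomes and lysosomes and, with CD9 and CD81, is widely used as a marker of extracellular vesicles. CD68 is a heavily glycosylated relative of the LAMP proteins that line the lysosome, known best from macrophages, and LAPTM5 is a lysosomal membrane protein of blood cells. CD82 has been described as a suppressor of metastasis, and TSPAN15 escorts the surface protease ADAM10.

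Among the 8 tetraspanins, CD82 and TSPAN15 differed most between TRF+DDP and DDP, in opposite directions, and the sequences just upstream of their start sites show what these promoters look like. RefSeq windows (GRCh38.p14, 250 bases before to 50 after a start) were at hand for 7 of the 10 genes, with 18 windows in all. CD81, CD151 and TSPAN3 had none. The stretch of CD82 (chr11:44565413-44565590, plus strand) lies within an intron of a longer CD82 transcript, and that of TSPAN15 (chr10:69451215-69451464, plus strand) lies outside the gene. Capitals mark GC boxes, GGGCGG or its reverse CCGCCC, the letters read by Sp-family factors.
CD82: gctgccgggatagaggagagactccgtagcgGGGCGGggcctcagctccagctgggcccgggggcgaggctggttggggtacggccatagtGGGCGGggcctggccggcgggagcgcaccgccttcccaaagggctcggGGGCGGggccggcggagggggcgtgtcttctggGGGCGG
TSPAN15: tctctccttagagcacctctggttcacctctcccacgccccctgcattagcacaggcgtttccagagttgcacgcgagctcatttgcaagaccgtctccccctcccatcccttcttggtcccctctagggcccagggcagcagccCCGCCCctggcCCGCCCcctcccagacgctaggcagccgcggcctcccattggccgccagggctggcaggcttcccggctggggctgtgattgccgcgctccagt

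CD82 held 4 such boxes, all in the forward orientation, and TSPAN15 held 2, both reversed. A GC box stood in 11 of the 18 windows and in 45.0% of 35116 promoter windows of the genome. Some of the 18 windows belong to the same gene and overlap, as for CD63. The shares of windows here and below are therefore a description, from which no conclusion about the genes is drawn. The E-box CACGTG, which MiT/TFE factors read at lysosomal genes, was found on either strand in 2 of the 18 windows (CD63 and TSPAN6) against 7.26% of all windows. Its longer form TCACGTGA, which contains the E-box, was in none of them and in 0.98% of all. The AP-1 site TGACTCA, or its reverse TGAGTCA, was in 2 windows (CD63 and CD68) against 4.95%. The matches of CD68 (chr17:7579527-7579555, plus strand) and CD63 (AP-1 at chr12:55729121-55729149 and E-box at chr12:55729173-55729200, minus strand) fall inside annotated exons of these genes and are shown with the matched letters in capitals.
CD68, AP-1: gctgaggccccTGAGTCAggctgtgggtg
CD63, AP-1: gccgggcccagTGACTCAggccgcagctg
CD63, E-box: cgggtaggggcCACGTGgccctggccgg

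Levels are the authors' TPM, a level per transcript length that is relative to the whole library. The reads behind a value are unknown, so no counting interval is given. From 13726 to 14028 genes reached 1 TPM in a CON or DDP library and from 13029 to 13500 in a library of the TRF groups. Mitochondrially encoded genes took 10.3% to 10.8% of the TPM in CON, 9.88% to 9.99% with DDP, 6.37% to 8.84% with TRF (the lowest in TRF replicate 3) and 8.29% to 8.55% with both. Both measures thus moved with TRF, as CD82, CD68 and CD63 did, and their part in the results was not tested. The epithelial keratins KRT7, KRT8 and KRT18 were abundant, and the summed level of 6 epithelial markers was 1850 to 1925 TPM in CON, 2296 to 2586 with DDP, 2715 to 2881 with TRF and 2687 to 2876 with both. KRT19, EPCAM and CDH1 were under 1 TPM in every group, so these defining epithelial markers were nearly absent from the labelled adenocarcinoma cells. In bulk RNA, a change in the share of cells that express a gene and a change in RNA per cell cannot be told apart.

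**Figure D1:**
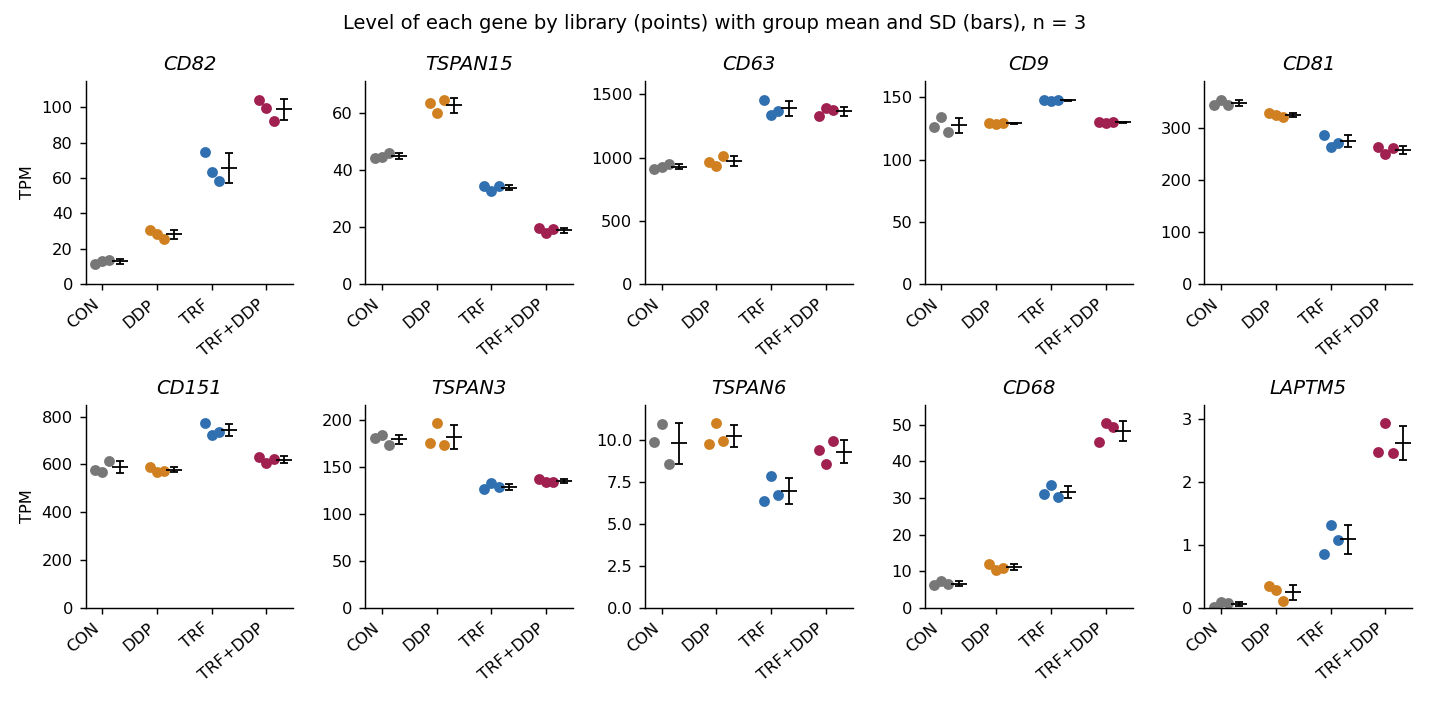
Level of each of the 10 genes in TPM (vertical axes, each from 0) in every library of the 4 groups (points), with the group mean and SD (bars, n = 3). CD82, CD68 and LAPTM5 were ordered CON, DDP, TRF and TRF+DDP without overlap, TSPAN15 was highest in DDP and lowest in TRF+DDP, and CD9 was set apart in TRF alone.

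CD82, the tetraspanin once named KAI1, had the widest relative spread of levels among the 8 member tetraspanins. The gene lies on chromosome 11 from 44564427 to 44620363 (GENCODE v29, GRCh38). Its level was 11.4, 13.3 and 13.9 TPM in the CON libraries, 30.6, 28.5 and 25.4 in DDP, 74.9, 63.4 and 58.3 in TRF, and 104, 99.8 and 92.4 in TRF+DDP. No library of a group reached into the next, and every treated group stood above CON. The means were 12.9 ± 1.32 TPM in CON (SD, n = 3), 28.1 ± 2.60 with DDP, 65.5 ± 8.47 with TRF and 98.9 ± 6.08 with both, which is 7.69 times the CON mean. TRF went with a 5.10-fold higher mean in the absence of DDP and a 3.52-fold higher mean in its presence. Cisplatin went with a 2.19-fold higher mean in normal medium and a 1.51-fold higher mean in TRF medium. On the fitted log2(TPM + 1) scale, the DDP effect was 1.07 in normal medium and 0.59 in TRF medium (standard error 0.10 each), a difference of -0.48 (standard error 0.14). The value of 0.59 lay at the 1.5-fold limit and was 0.49 after quantile normalization and 0.51 after TMM-style scaling, which sets library factors from trimmed log ratios. It was also under the limit without TRF replicate 3 (0.51), TRF replicate 2 (0.57), TRF+DDP replicate 1 (0.55) or TRF+DDP replicate 2 (0.58).

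TSPAN15 was the only member whose DDP difference had opposite signs in the 2 media with no overlap of groups. It belongs to the TspanC8 tetraspanins, which carry ADAM10 out of the endoplasmic reticulum and decide where that protease works. The gene occupies 69451473 to 69507669 of chromosome 10. Levels were 44.1, 44.6 and 45.9 TPM in CON, 63.5, 59.7 and 64.6 in DDP, 34.2, 32.7 and 34.4 in TRF, and 19.5, 17.8 and 19.2 in TRF+DDP. All DDP libraries stood above all CON libraries, while all TRF+DDP libraries stood below every other library. Group means were 44.9 ± 0.913 TPM in CON, 62.6 ± 2.55 with DDP, 33.8 ± 0.914 with TRF and 18.8 ± 0.915 with both (SD, n = 3). With DDP, the mean was thus 1.40 times CON in normal medium and 0.557 times TRF in TRF medium. Under TRF+DDP it was 0.301 times DDP. The DDP effect on the log2 scale was 0.47 in normal medium and -0.81 in TRF medium (standard error 0.05 each), and the difference between these effects was -1.28 (standard error 0.07). Across all alternatives that difference stayed between -1.32 and -1.24.

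**Figure D2:**
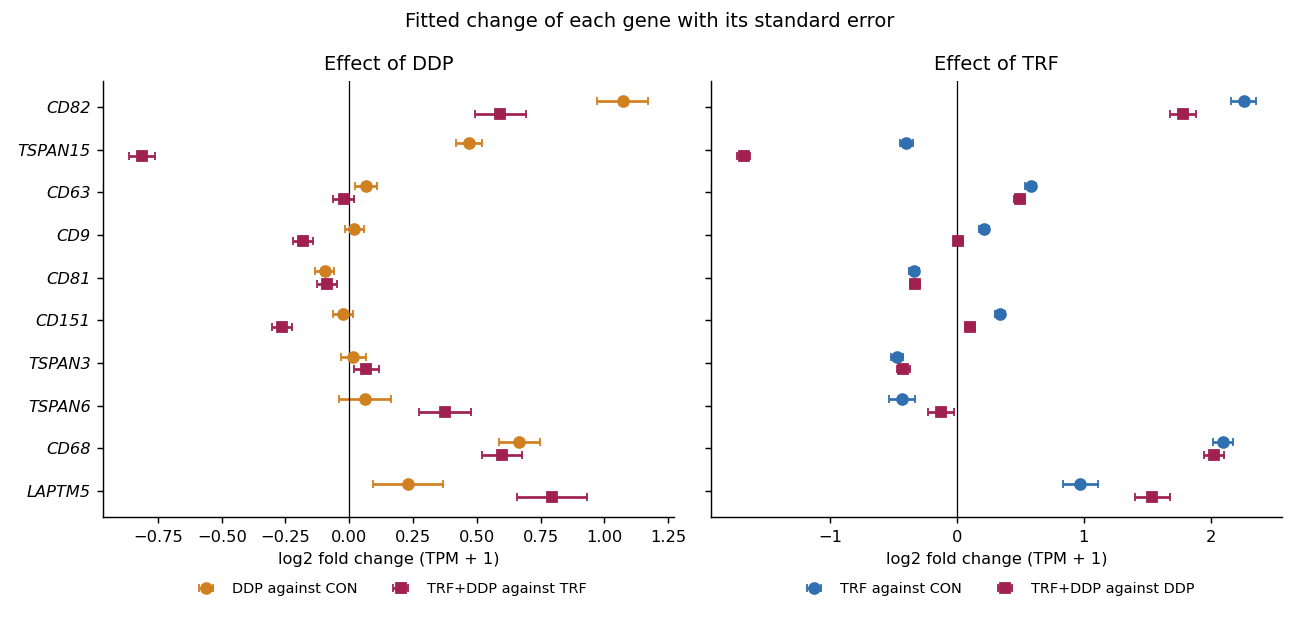
Fitted log2 fold change on the log2(TPM + 1) scale (horizontal axes) of each gene, with its standard error as bars. The left panel shows the DDP effect in normal medium (circles) and in TRF medium (squares), and the right panel the TRF effect without DDP (circles) and with DDP (squares). TSPAN15 crosses the zero line between media in the left panel, from 0.47 to -0.81, and CD82 and CD68 lie farthest right under TRF.

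CD63, the tetraspanin of late endosomes and lysosomes, was the most abundant member, with a mean of 1164 TPM over the 12 libraries. Its gene runs from 55725323 to 55729707 on chromosome 12. CON libraries held 909.7, 926 and 947 TPM and DDP libraries 967, 934 and 1013. TRF libraries held 1459.9, 1340.05 and 1367 TPM and TRF+DDP libraries 1326, 1396 and 1379. The TRF regime thus divided the libraries cleanly, whereas CON overlapped DDP and TRF overlapped TRF+DDP. The mean was 928 ± 18.8 TPM in CON and 1389 ± 62.9 in TRF, a ratio of 1.497, and 971 ± 40.03 in DDP against 1367 ± 36.2 in TRF+DDP, a ratio of 1.41. Whether CD63 passed the 1.5-fold limit under TRF depended on the scaling and on single libraries. The log2 difference from CON was 0.58, just under the limit, and 0.70 after TMM-style scaling. It was also past the limit without CON replicate 3 (0.60), TRF replicate 2 (0.61) or TRF replicate 3 (0.59). CD63 shares 237 exon bases with AC009779.2 on the opposite strand, which stayed between 1.67 and 2.29 TPM in the group means, and the use of strand in the counting is not given.

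CD9 and CD81, which pair with immunoglobulin-family partners at the surface, parted under TRF. CD9 (chromosome 12, 6199715 to 6238271) was at 126, 134 and 122 TPM in CON, 129, 128 and 129 in DDP, 147, 147 and 148 in TRF, and 130.3, 129 and 130.1 in TRF+DDP. Only TRF stood apart from the other groups, with a mean 1.16 times that of CON. CD81 (chromosome 11, 2376177 to 2397419) was at 344, 355 and 345 TPM in CON, 329, 325 and 322 in DDP, 287, 264 and 272 in TRF, and 264, 249.8 and 261 in TRF+DDP. Its order was CON, DDP and then the TRF groups, which shared the value 264, and the mean in TRF+DDP was 0.742 times that of CON. The log2 difference of CD9 between TRF+DDP and DDP was 0.01 and changed sign between settings (-0.01 to 0.13), while that of CD81 was -0.33 and stayed negative (-0.37 to -0.21).

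CD151 (chromosome 11, 832843 to 839831), the partner of laminin-binding integrins, was at 577, 570.4 and 616 TPM in CON, 592, 569 and 574 in DDP, 773, 725 and 738 in TRF, and 633, 605 and 623 in TRF+DDP. As with CD9, TRF without DDP was the only group set apart, at 1.27 times the CON mean, and the level in TRF+DDP overlapped that of CON. The DDP effect was -0.02 on the log2 scale in normal medium and -0.26 in TRF medium (standard error 0.04 each). CD151 shares 257 exon bases (6.53% of its exons) with POLR2L on the opposite strand, an RNA polymerase subunit gene whose mean was 562 TPM in CON, 596 with DDP, 453 with TRF and 586 with both. POLR2L was lowest in the group where CD151 was highest. The part of this overlap in the CD151 values was not tested.

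TSPAN3, a widely expressed tetraspanin, and TSPAN6 were the other members that were lower in TRF than in CON. TSPAN3 (chromosome 15, 77041404 to 77083984) was at 180.3, 183 and 173 TPM in CON, 175, 196 and 173 in DDP, 126, 132 and 128 in TRF, and 137, 134 and 134 in TRF+DDP. It was divided by TRF much as CD63 was, but in the other direction, with TRF at 0.719 times CON and TRF+DDP at 0.743 times DDP. TSPAN6 (chromosome X, 100627109 to 100639991) was at 9.84, 10.9 and 8.53 TPM in CON, 9.71, 10.97 and 9.94 in DDP, 6.32, 7.83 and 6.69 in TRF, and 9.38, 8.57 and 9.91 in TRF+DDP. Only TRF without DDP lay below the rest, at 0.711 times the CON mean, and the TRF+DDP libraries overlapped those of CON and DDP.

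CD68, the LAMP relative, stands on chromosome 17 from 7579467 to 7582113. It was at 6.14, 7.35 and 6.45 TPM in CON, 12.1, 10.3 and 10.99 in DDP, 31.2, 33.4 and 30.3 in TRF, and 45.4, 50.5 and 49.4 in TRF+DDP. The 4 groups followed the same order as those of CD82, with no overlap between neighbours. Its mean in TRF+DDP, 48.4 ± 2.69 TPM, was 7.28 times that in CON, 6.65 ± 0.628 (SD, n = 3). TRF went with a 4.76-fold higher mean without DDP and a 4.34-fold higher mean with it, and DDP with a 1.68-fold higher mean in normal medium and a 1.53-fold higher mean in TRF medium. On the log2 scale the DDP effects of 0.67 and 0.60 differed by -0.07 (standard error 0.11). Unlike CD82 and TSPAN15, CD68 thus gave DDP effects in both media that lay within their errors of each other. The value of 0.60 in TRF medium was 0.50 after quantile normalization and 0.52 after TMM-style scaling, under the 1.5-fold limit. It was also under the limit without TRF replicate 3 (0.57), TRF+DDP replicate 2 (0.57) or TRF+DDP replicate 3 (0.58).

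CD68 shares 1789 of its 2189 exon bases (81.7%) with AC016876.2, a transcript on the same strand, and 150 with the antisense gene AC016876.1. Reads of CD68 and AC016876.2 may have been divided between them, so the CD68 level is uncertain to that extent. AC016876.2 had group means of 1.25 TPM in CON, 1.06 with DDP, 1.04 with TRF and 2.99 with both, far under those of CD68. AC016876.1 had 17.5, 17.4, 8.72 and 9.89 TPM in the same order, lower where CD68 was higher.

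LAPTM5 (chromosome 1, 30732469 to 30757820) had the lowest levels of the 10 genes. Its libraries read 0.02, 0.09 and 0.07 TPM in CON, 0.34, 0.29 and 0.11 in DDP, 0.86, 1.32 and 1.08 in TRF, and 2.47, 2.93 and 2.45 in TRF+DDP. The order was again CON, DDP, TRF and TRF+DDP without overlap. With a mean of 1.00 TPM over all libraries it passed the filter for the fit only through the groups where it was high. Its log2 difference between TRF+DDP and DDP was 1.54 with a pseudocount of 1 and 3.04 with 0.1, so the size of this change depends on that choice. The difference between its DDP effects, 0.57, was 0.14 with a pseudocount of 0.1.

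Since CD68 and LAPTM5 are known from macrophages and other blood cells, markers of those cells were read beside them. Of 15 leukocyte markers, 2 (ITGAM and CD37, itself a tetraspanin) averaged at least 1 TPM over the 12 libraries. TYROBP and AIF1 were listed at 0 in all 12 libraries, and PTPRC, the common leukocyte antigen, at 0 in all TRF and TRF+DDP libraries. The summed level of the 15 markers was 7.84 to 8.95 TPM in CON, 9.74 to 10.04 with DDP, 2.65 to 4.72 with TRF and 5.04 to 6.79 with both. This sum was lower in both TRF groups, in which CD68 and LAPTM5 were highest, but ITGAM and CD37 did not move together. The CD37 mean was 4.43 TPM for CON and 0.573 for TRF+DDP. The ITGAM mean was higher for TRF+DDP (4.01 TPM) than for CON (2.87), near that for DDP (4.39) and lowest for TRF alone (1.43). A part of leukocytes in the CD68 and LAPTM5 levels was not tested. Of 6 fibroblast markers only COL1A1 and of 4 endothelial markers none averaged at least 1 TPM over the 12 libraries. Among 7 alveolar type II markers only ABCA3, a lamellar body lipid transporter, did so, and SFTPA1 was listed at 0 throughout. SFTPC and NAPSA passed 1 TPM in the DDP mean alone (1.56 and 1.21 TPM). For SFTPC this came from 1 library, with 0.53, 0.40 and 3.75 TPM in DDP.

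The 33 tetraspanin genes together held 2616 ± 44.2 TPM in CON (SD, n = 3), 2693 ± 43.4 with DDP, 3235 ± 110 with TRF and 2997 ± 2.10 with both, and the 8 members supplied 85.5%, 84.9%, 86.3% and 88.0% of it. CD63 supplied 35.5% ± 0.147 of the tetraspanin TPM in CON, 36.1% ± 0.973 with DDP, 42.9% ± 0.485 with TRF and 45.6% ± 1.20 with both. CD81 went the other way, from 13.3% ± 0.334 in CON to 12.1% ± 0.256 with DDP, 8.48% ± 0.0889 with TRF and 8.62% ± 0.256 with both. The make-up thus moved from CD81 and TSPAN3 (6.85% in CON, 4.50% in TRF+DDP) towards CD63, the endosomal member. CD82 supplied from 0.491% in CON to 1.05% with DDP, 2.02% with TRF and 3.30% with both, and TSPAN15 went from 1.71% to 2.32%, 1.04% and 0.628% in the same order. CD82 therefore stood below TSPAN15 in CON and DDP and above it in both TRF groups.

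**Figure D3:**
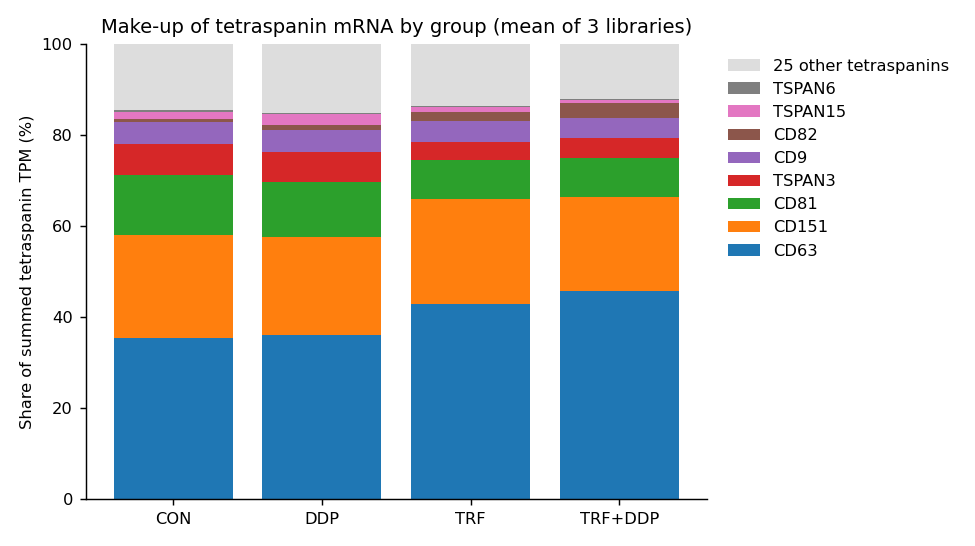
Share of the summed TPM of 33 tetraspanin genes (vertical axis, %) supplied by each of the 8 members and by the 25 other tetraspanins, as the mean of 3 libraries per group. The CD63 band widens from 35.5% in CON to 45.6% in TRF+DDP, and the CD81 band narrows from 13.3% to 8.62%.

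To set these levels beside the rest of the pathway, limma was fitted to the 13854 genes that averaged 1 TPM or more, and a gene was called when it moved more than 1.5-fold with an adjusted p (Benjamini-Hochberg) under 0.05. For the difference between the DDP effects of the 2 media, the adjusted p sufficed. For the members the rule is only a description, because they were chosen on these values. In DDP against CON 2 members lay past its limits (CD82 and CD68, both higher), where 2.01% of all genes were called, 1.86% higher and 0.159% lower. In TRF against CON 3 lay past them (CD82, CD68 and LAPTM5, all higher), where 25.6% of all genes were called, 8.41% higher and 17.1% lower. The same 3 lay past them as higher and TSPAN15 as lower in TRF+DDP against DDP (33.2% of all genes, 11.8% higher and 21.4% lower), against TRF (16.3%, 10.2% higher and 6.1% lower) and against CON (35.1%, 15.6% higher and 19.5% lower). Against TRF, CD82 and CD68 fell short of the limits under several of the alternatives tried. For the difference between DDP effects, LAPTM5 as higher and CD82, CD9, CD151 and TSPAN15 as lower lay past the limit, where 29.8% of all genes were called (13.5% higher and 16.3% lower), and LAPTM5 fell short of it under 13 of the alternatives tried. The libraries of the groups compared did not overlap for 5 of the 10 members in DDP against CON (34.6% of all genes) and for all 10 in TRF against CON (64.4%). The groups were likewise apart for 8 members in TRF+DDP against DDP (70.2% of all genes), 8 against TRF (54.5%) and 7 against CON (72.6%). These counts follow from the choice of the genes and are not a result about them. The median of all genes in TRF against CON was -0.11 on the log2 scale and 0.00 after quantile normalization, and a difference of that size is within reach of the scaling.

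The companion genes were 162 genes in 6 lists (other tetraspanins, tetraspanin partners, lysosomal membrane proteins, lysosomal enzymes, endosomal sorting and vesicle genes, and MiT/TFE factors with lysosome regulators), of which 143 were tested. In TRF+DDP against DDP 51 of these 143 were called (35.7%, against 33.2% of all genes), 13 higher and 38 lower. With TMM-style scaling 46 were called, 18 higher and 28 lower. In TRF against CON 45 were called (31.5%, against 25.6%), 9 higher and 36 lower. In TRF+DDP against TRF 19 were called (13.3%, against 16.3%), 11 higher and 8 lower, and in TRF+DDP against CON 49 (34.3%, against 35.1%), 16 higher and 33 lower. DDP against CON gave 3 (2.10%, against 2.01%), all higher, and this count was 8 with a pseudocount of 0.1, 5 without CON replicate 1 and 6 without DDP replicate 1. The share in TRF against CON thus lay above that of all genes, of which 8.41% were called higher and 17.1% lower. In the other comparisons given here the shares were nearer the background. All p-values below are limma's, adjusted over all genes tested, and measure only the spread between these samples. The labels do not say that replicates came from separate cultures. The paper's caption to its sequencing figure states 3 biological replicates per group, without describing them.

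**Figure D4:**
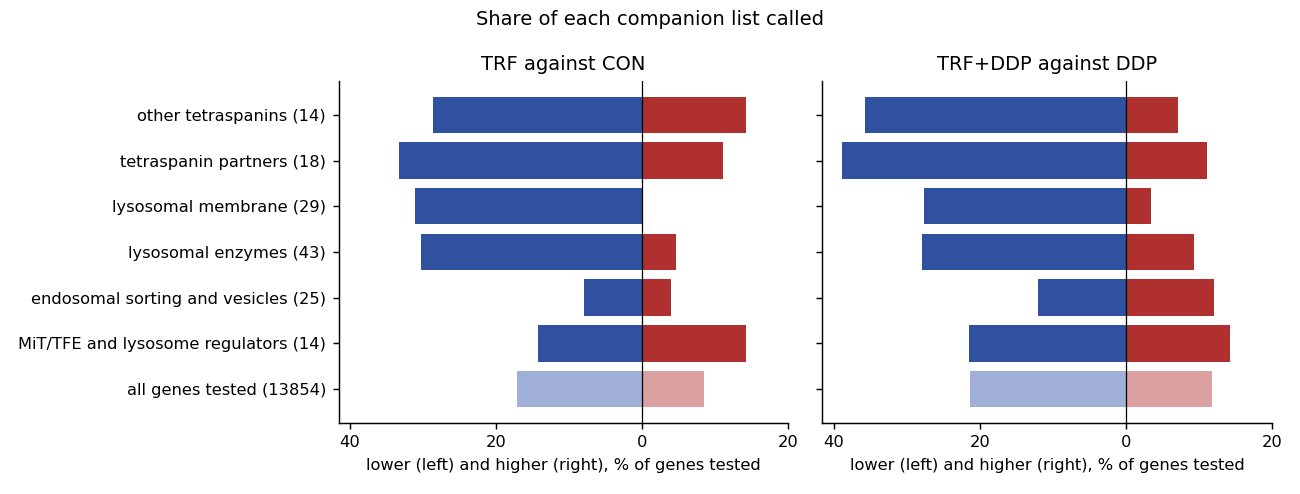
Share of the tested genes of each companion list called lower (left bars) and higher (right bars) in TRF against CON and in TRF+DDP against DDP, in % of the genes tested, with the number tested in brackets and all genes as the lowest, paler bars. No lysosomal membrane gene was called higher in TRF against CON, where 9 of 29 were called lower.

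Of 14 other tetraspanins tested, 1 rose and 5 fell in TRF+DDP against DDP (42.9% called, against 33.2% of all genes). Their median was -0.42 on the log2 scale against -0.10 for all genes. CD37, a leukocyte tetraspanin, fell by 1.76 (adjusted p = 8.45e-06), from 4.33 ± 0.559 to 0.573 ± 0.133 TPM. ROM1, known from photoreceptor discs, fell by 1.24 (adjusted p = 4.39e-05), and TSPAN31 by 0.77 (adjusted p = 0.000267). TSPAN18 fell by 1.13 (adjusted p = 2.86e-07), although TRF without DDP had raised it from 3.75 ± 0.459 in CON to 8.69 ± 0.348 TPM. In TRF+DDP it was at 2.09 ± 0.131 TPM, and its DDP effects of 0.51 in normal medium and -1.65 in TRF medium differed by -2.16 (adjusted p = 8.2e-07). TSPAN5 also had a lower DDP effect in TRF medium, with a difference of -0.85 (adjusted p = 7.61e-05). Its levels were 7.99 ± 0.525 TPM in CON, 9.56 ± 0.178 with DDP, 12.9 ± 0.252 with TRF and 8.11 ± 0.549 with both. The DDP effect was lower in TRF medium for 7 of the 14 other tetraspanins and higher for none (50%, against 29.8% of all genes). TSPAN1 rose with DDP in both media, from 2.06 to 4.53 TPM in normal medium (log2 change 0.85, adjusted p = 0.00259) and from 3.36 to 6.84 in TRF medium (0.85, adjusted p = 0.000412).

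Tetraspanin partners include integrins, proteases and growth factor receptors. Of 18 tested, 2 rose and 7 fell in TRF+DDP against DDP (50% called, against 33.2% of all genes). ADAM10, the protease that TSPAN15 escorts, fell by 1.26 (adjusted p = 1.69e-07), from 79.5 ± 4.44 to 32.6 ± 1.60 TPM, and its level was 70.5 ± 6.42 in CON and 40.4 ± 5.96 in TRF. It was therefore low in both TRF groups, as TSPAN15 was. HBEGF, an EGF receptor ligand whose precursor binds CD9, rose by 3.19 (adjusted p = 2.11e-09), from 2.41 ± 0.346 to 30.1 ± 3.38 TPM, and stood at 1.38 ± 0.353 in CON and 4.68 ± 0.968 in TRF. Its DDP effect was 0.53 in normal medium and 2.46 in TRF medium, a difference of 1.94 (adjusted p = 3.27e-05). The receptor gene EGFR fell by 1.81 (adjusted p = 1.08e-09), from 31.5 ± 0.511 to 8.27 ± 0.763 TPM. ITGB4, the integrin subunit of hemidesmosomes that associates with CD151, fell by 1.84 in TRF against CON (adjusted p = 4.14e-10) and by 1.93 in TRF+DDP against DDP (adjusted p = 1.79e-10), to 31.4 ± 1.61 and 31.1 ± 2.89 TPM. ICAM1, an adhesion receptor, rose in TRF+DDP against TRF by 0.76 (adjusted p = 5.07e-07), from 60.8 ± 3.50 to 103.7 ± 5.27 TPM.

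Of 29 other lysosomal membrane genes tested, 0 rose and 9 fell in TRF against CON by limma with its fold rule (31% called, against 8.41% of all genes higher and 17.1% lower), and 4 were higher at an unadjusted p under 0.05. The split of all genes depended on the scaling, with 1625 higher and 1635 lower after quantile normalization. In TRF+DDP against DDP, 1 rose and 8 fell (31% called, against 33.2% of all genes), with a median of -0.23 against -0.10 for all genes. NPC1, which exports cholesterol from the lysosome, fell from 122 ± 1.59 to 55.5 ± 0.552 TPM in TRF+DDP against DDP (log2 change -1.13, adjusted p = 2.32e-08), and by 1.21 in TRF against CON (adjusted p = 2.11e-08). TPCN1, a cation channel of endolysosomes, fell by 1.54 (adjusted p = 3.47e-09), the sialic acid exporter SLC17A5 by 1.10 (adjusted p = 4.48e-07) and the cobalamin exporter LMBRD1 by 1.09 (adjusted p = 6.09e-07). HGSNAT, which acetylates heparan sulfate at the lysosomal membrane, fell by 1.18 in TRF against CON (adjusted p = 8.89e-09). OSTM1, the partner subunit of a lysosomal chloride transporter, rose in TRF+DDP against TRF by 0.82 (adjusted p = 4.53e-05), from 6.91 ± 1.24 to 12.9 ± 0.486 TPM, while TPCN1 fell by 0.70 (adjusted p = 1.1e-05).

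Among 43 lysosomal enzymes and activators tested, 2 rose and 13 fell in TRF against CON (34.9% called, against 25.6% of all genes). In TRF+DDP against DDP, 4 rose and 12 fell (37.2%, against 33.2%), and the median was -0.47 on the log2 scale. The genes named here for the size of their change in these comparisons fell, but some abundant enzymes went up. CTSL had a mean of 414 ± 26.1 TPM in DDP and 652 ± 20.5 in TRF+DDP, and DPP7 had 137 ± 3.30 and 216 ± 14.8. MANBA, a mannosidase, fell by 1.43 in TRF against CON (adjusted p = 7.84e-07) and by 1.27 in TRF+DDP against DDP (adjusted p = 1.44e-06). CTSO, a cysteine cathepsin, fell by 1.17 in the latter comparison (adjusted p = 4.33e-06). The galactosidase GLB1 fell by 0.90 (adjusted p = 1.83e-08) and the fucosidase FUCA1 by 0.88 (adjusted p = 9.42e-07). CTSV, another cathepsin, fell by 1.48 in TRF against CON (adjusted p = 2.7e-08) and rose by 1.02 in TRF+DDP against TRF (adjusted p = 1.37e-06), at 8.82 ± 0.608 TPM in CON, 2.52 ± 0.216 in TRF and 6.14 ± 0.280 in TRF+DDP. IDUA, an iduronidase, had 9.71 ± 0.234, 3.95 ± 0.339 and 7.61 ± 0.293 TPM in the same groups. ARSB, a sulfatase, fell by 0.84 in TRF+DDP against TRF (adjusted p = 4.05e-05).

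Genes of endosomal sorting and vesicle release, the route on which CD63 travels, held 3 called of 25 tested in TRF against CON (12%, against 25.6% of all genes). In TRF+DDP against DDP 3 rose and 3 fell (24% called, against 33.2% of all genes), with a median of 0.10. HGS, an ESCRT subunit that sorts ubiquitinated cargo, rose by 0.81 in TRF against CON (adjusted p = 3.37e-07) and by 0.72 in TRF+DDP against DDP (adjusted p = 5.4e-07), reaching 142.7 ± 5.85 TPM. The syndecans, which carry syntenin-bound cargo into vesicles, differed among themselves. SDC4 rose by 0.80 in TRF+DDP against DDP (adjusted p = 2.4e-08), from 94.7 ± 2.52 to 165 ± 1.43 TPM, whereas SDC2 fell by 1.75 (adjusted p = 2.64e-07), from 13.0 ± 0.995 to 3.23 ± 0.890 TPM. SDC1 rose with DDP in both media, by 0.59 in normal medium (adjusted p = 2.43e-05) and 0.88 in TRF medium (adjusted p = 5.59e-08), and the former value was 0.51 after TMM-style scaling, under the fold limit. FLOT2, a membrane raft protein, fell by 0.75 in TRF+DDP against DDP (adjusted p = 2.1e-07).

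The MiT/TFE factors switch on lysosomal genes through the E-box shown above. Of 14 genes of this list tested, 2 rose and 3 fell in TRF+DDP against DDP (35.7% called, against 33.2% of all genes). MITF itself fell by 1.40 (adjusted p = 9.92e-07), from 8.44 ± 1.43 to 2.57 ± 0.3001 TPM. RRAGD, a GTPase of the nutrient-sensing complex, rose by 0.81 (adjusted p = 0.000109), and RILP, which links late endosomes to dynein, rose by 0.86 (adjusted p = 1.07e-06), from 25.03 ± 1.38 to 46.1 ± 2.11 TPM. BORCS5, which positions lysosomes at the cell edge, fell by 1.03 (adjusted p = 0.00552), with libraries spread widely around means of 7.46 ± 2.87 in DDP and 3.11 ± 1.20 in TRF+DDP.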

How the data were processed

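RNA of 12 A549/DDP libraries in 4 groups was analysed. The authors selected polyadenylated RNA, cleaned reads with SeqPrep and sickle, mapped them by HISAT2, assembled them by StringTie, and deposited TPM per library. The submitters' processing notes also name edgeR. Not given in the sources used here are the versions, the genome build, the quantifier, the strand setting, and in the labels the DDP dose and time. The authors' extraction text names A549 cells, and the labels A549/DDP. Of 60902 genes, 60664 have Ensembl identifiers and 238 are assembled loci; 60463 identifiers were in the name table, 42028 with a symbol of their own. GENCODE v29 (GRCh38) gave the coordinates.

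Genes that averaged 1 TPM or more were fitted as log2(TPM + 1) with limma 3.58.1 (trend, robust) in R 4.3.3, in 1 fit of 4 groups. Fold changes on this scale understate changes of low genes. Members and companion lists were chosen with earlier results of these data known. Named companion genes were, per list, up to 4 called with the largest change in TRF+DDP against DDP, up to 2 in TRF against CON and in TRF+DDP against TRF, those called in DDP against CON, and the 2 of smallest adjusted p for the difference between DDP effects (group mean 1 TPM or more). The GC box was added after the promoter windows had been seen. The fit was also tested on simulated data (13671 genes, TRF+DDP against DDP). Sets of 50 genes were changed by a log2 value of 0.8, 1, 1.5 or 2, and it recovered 50, 48, 50 and 50 of them, with 2 false calls. The changed genes all averaged over 10 TPM on the log scale, were changed in TRF+DDP alone, and had normally distributed noise. Recovery of lower genes was not tested, nor were false calls where a large share of genes changes, as in these data. Figures were drawn with Python 3.11.15 and matplotlib 3.10.9.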

Additional observations from a re-analysis of the deposited data

Results flagged for a closer look

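Of 143 companion genes, 50 had a DDP effect that differed between TRF medium and normal medium by limma's test of the difference, adjusted over all genes. This was 35% of them, against 29.8% of all genes tested. The 2 of smallest adjusted p in each of the 6 lists are given here. On the log2 scale the difference was -2.16 for TSPAN18 (adjusted p = 8.2e-07), -0.85 for TSPAN5 (adjusted p = 7.61e-05), 1.94 for HBEGF (adjusted p = 3.27e-05) and -0.83 for EGFR (adjusted p = 0.000144). Among lysosomal genes it was -0.69 for TPCN1 (adjusted p = 0.000465), 0.24 for LAPTM4B (adjusted p = 0.0113), 0.89 for CTSV (adjusted p = 0.000209) and 0.76 for IDUA (adjusted p = 0.000527). It was 0.54 for SDC4 (adjusted p = 0.000115), -0.31 for RAB7A (adjusted p = 0.000476), -0.61 for MITF (adjusted p = 0.0238) and -1.25 for BORCS5 (adjusted p = 0.0294). DDP effects had opposite signs in normal and TRF medium, with no overlap of groups in either, for TSPAN18 (0.51 and -1.65) and TSPAN5 (0.23 and -0.61). The same held for EGFR (0.10 and -0.72) and RAB7A (0.16 and -0.15). Signs also differed for MITF (0.52 and -0.09), BORCS5 (0.18 and -1.07) and LAPTM4B (-0.004 and 0.24). For these, the groups overlapped in TRF medium (MITF) or in normal medium (BORCS5 and LAPTM4B). In normal medium the DDP effect was -0.01 for TPCN1, 0.04 for IDUA and 0.14 for CTSV, none of them called.

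TSPAN15 showed a DDP effect of 0.47 in normal medium and -0.81 in TRF medium, with all libraries of a group on the same side of its control. No p is given and the difference is not offered as tested, because TSPAN15 was chosen for it.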

How the results depend on the processing

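Each result was recomputed with quantile or TMM-style scaling, with no trend in limma, with no filter or a filter of 1 TPM in each library, with 0.1 as pseudocount, with a replicate block, within the groups compared alone (no value for the difference between DDP effects), and without each library. The count of companion genes called in DDP against CON was 3 and became 8 with a pseudocount of 0.1. On leaving out 1 library it ran from 3 to 6, with 5 without CON replicate 1 and 6 without DDP replicate 1, from 43 to 47 in TRF against CON, 48 to 52 in TRF+DDP against DDP, 19 to 21 in TRF+DDP against TRF, 46 to 51 in TRF+DDP against CON and 39 to 48 for the difference between DDP effects (50 with all libraries, 34 with no filter). No count of companion genes and no named companion gene changed direction. Differences of CD9, CD63, CD81, CD151, TSPAN3 and TSPAN6 near 0 changed sign in 14 of their comparisons, with values from -0.17 to 0.14. Of all genes called in TRF against CON, 1165 were higher and 2375 lower, and 1625 and 1635 after quantile normalization; in TRF+DDP against DDP these were 1631 and 2968, and 2179 and 2273.

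Among named companions, SDC1 in DDP against CON was under the fold limit after quantile normalization (0.55), TMM-style scaling (0.51) and without CON replicate 2, CON replicate 3 or DDP replicate 1, MITF in TRF against CON after quantile normalization (-0.56), and the differences between DDP effects of MITF and BORCS5 missed the adjusted p limit under some settings (adjusted p from 0.00965 to 0.063 and from 0.0118 to 0.0775 over all settings, by limma). The causes were not tested. For the members, where passing a limit is no test, the CD82 difference between DDP effects (-0.48) fell short of it with no filter and without CON replicate 1, DDP replicate 1, TRF replicate 1 or TRF+DDP replicate 3 (-0.38 to -0.43).

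Replicate numbers did not pair the samples: over 18 same-numbered pairs the correlation of deviations ran from -0.082 to 0.0795, and 4 of 18 matched their own number best. With the replicate block 3 companion genes were called in DDP against CON, 45 in TRF against CON, 51 in TRF+DDP against DDP, 19 against TRF, 49 against CON and 48 for the difference between DDP effects. The LAPTM5 difference (0.57) fell short of the limit under 13 alternatives: this block, no filter, a pseudocount of 0.1 (0.14), and without CON replicate 1, 2 or 3, DDP replicate 2 or 3, TRF replicate 1 or 3, or TRF+DDP replicate 1, 2 or 3 (0.49 to 0.60). The depth behind TPM is unknown.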

Other observations

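The genes whose levels followed those of CD82, CD68 and TSPAN15 most closely over the 12 libraries were sought among 7390 genes that averaged 10 TPM or more, by Pearson's r of log2(TPM + 1). The 12 points fall into 4 groups that share treatment, so r describes mainly the group pattern, and it is given without a p. For CD82 the highest values were those of ZNF668 (0.990), DEF8 (0.989), FOSL1 (0.988) and PEA15 (0.988). FOSL1, a subunit of AP-1, had group means of 22.3 TPM in CON, 45.6 with DDP, 129 with TRF and 177 with both. This course was close to that of CD82, for which likeness it was picked. PEA15, a death effector domain protein, had means of 76.7, 114, 187 and 258 TPM in the same order.

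For CD68 they were GPRASP2 (0.997), KCNN4 (0.996), ADI1 (0.995) and TNFRSF12A (0.994). KCNN4, a calcium-activated potassium channel, had means of 5.15 TPM in CON, 7.83 with DDP, 20.8 with TRF and 27.4 with both, and TNFRSF12A, the TWEAK receptor, had 59.2, 93.8, 295 and 384 TPM. For TSPAN15 they were ANXA6 (0.994), FNDC3B (0.991), PTPRE (0.989) and PFKP (0.989). ANXA6, a calcium-dependent membrane-binding annexin, had means of 234 TPM in CON, 272 with DDP, 196 with TRF and 141 with both, and PFKP, a glycolytic phosphofructokinase, had 456, 507, 366 and 286 TPM. All 4 genes of this last set were highest in DDP and lowest in TRF+DDP, as TSPAN15 was, an order that follows from choosing them by r.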
